A study of Mus musculus with 2 samples.

Results

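SRCAP peaks at divergent promoters were regions of SRCAP CUT&Tag signal that lay over the DNA between the transcription start sites (TSSs) of 2 protein-coding genes transcribed away from each other. The peaks of both replicates were pooled and overlapping peaks were merged, and a region was kept if it overlapped the span between a minus-strand TSS and a plus-strand TSS to its right, at most 1000 bp apart. This gave 390 of 15659 merged regions, 2.49% (95% interval 2.26 to 2.75%). Of these, 210 held a replicate 1 peak and 363 a replicate 2 peak. The measured value was the position of the peaks and nothing in the choice of regions used the score of a peak.

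SRCAP is the ATPase of a chromatin remodeling complex that replaces histone H2A by the variant H2A.Z in nucleosomes next to TSSs. Divergent promoters are common in mammalian genomes, are mostly CpG-rich, and often drive housekeeping genes such as those for DNA repair, mitochondria and RNA processing. Both genes share a short stretch of DNA in which transcription factors such as NF-Y, which binds the CCAAT box, ETS proteins and SP1, which binds the GC box, can act on either side, and each gene has its own core promoter and first nucleosome.

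Both samples belonged to 1 group, SYAT_NT, with replicates 1 and 2. SYAT cells are mouse embryonic stem cells derived from the CGR8 line. Both *Srcap* alleles carry YPet, a yellow fluorescent protein, and an auxin-inducible degron (AID), and the cells express OsTir1, the plant receptor needed for degradation, from an EF1a promoter after lentiviral transduction. The line came from 1 homozygous clone, and cells were kept in serum and LIF with auxinole, which blocks the auxin response. In CUT&Tag an antibody brings the transposase Tn5 to its target, and here anti-GFP, which also recognizes YPet, was used. The study describes its replicates in general as biological ones from independent cultures, while the labels give only a replicate number. With 1 group no comparison between conditions could be made. Peak lists hold no expression values, so neither the identity of the cells nor the activity of the genes was checked here.

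The genome held 754 such pairs, formed by 1487 of 21938 protein-coding genes (6.78%). Their TSSs were 1 to 987 bp apart, with a median of 129.5 bp. The sequence between the TSSs is printed for pairs with the strongest regions or from a panel of well-known pairs, where it was at most 300 bp long and overlapped by a peak in both replicates, and for Uqcrq/Gdf9, Atp6v1d/Eif2s1 and Rpa1/Smyd4, which were chosen after their values were seen as strong examples of respiratory chain, translation and DNA replication genes. Each runs from the TSS of the minus-strand gene, which is named first, to that of the plus-strand gene, on the plus strand of GRCm38, so it is promoter DNA outside both gene records except for its end bases. Capitals mark matches to the words searched in the promoters, on either strand: the NF-Y box CCAAT, the word CCGGAAG bound by ETS factors, the GC box GGGCGG of SP1 and its relatives, the word GCGCATGC from the site of NRF1, the word ATGGCGG from the site of YY1, the word TCTCGCGA from the site of ZBTB33, and the TATA box in its form TATAAA.
Cdca2/Kctd9: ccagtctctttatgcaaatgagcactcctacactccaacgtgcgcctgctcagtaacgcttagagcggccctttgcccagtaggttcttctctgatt
Fbxl13/Armc10: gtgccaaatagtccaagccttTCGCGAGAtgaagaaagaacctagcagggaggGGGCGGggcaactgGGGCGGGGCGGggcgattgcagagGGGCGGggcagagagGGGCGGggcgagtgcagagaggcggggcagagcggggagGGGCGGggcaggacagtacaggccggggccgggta
Zfp277/Dock4: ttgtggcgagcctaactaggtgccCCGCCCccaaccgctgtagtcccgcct
Casc1/Etfrf1: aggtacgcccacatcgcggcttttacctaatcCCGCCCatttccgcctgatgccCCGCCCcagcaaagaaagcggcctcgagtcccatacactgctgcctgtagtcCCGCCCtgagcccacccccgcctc
Mrps12/Sars2: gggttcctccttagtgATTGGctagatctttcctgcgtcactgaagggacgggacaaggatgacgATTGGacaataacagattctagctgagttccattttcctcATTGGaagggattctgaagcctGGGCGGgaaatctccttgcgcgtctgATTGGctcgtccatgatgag
Uqcrq/Gdf9: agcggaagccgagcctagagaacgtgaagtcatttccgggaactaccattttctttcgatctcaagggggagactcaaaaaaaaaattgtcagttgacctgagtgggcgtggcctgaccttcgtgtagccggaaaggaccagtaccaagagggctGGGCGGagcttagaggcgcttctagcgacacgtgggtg
Atp6v1d/Eif2s1: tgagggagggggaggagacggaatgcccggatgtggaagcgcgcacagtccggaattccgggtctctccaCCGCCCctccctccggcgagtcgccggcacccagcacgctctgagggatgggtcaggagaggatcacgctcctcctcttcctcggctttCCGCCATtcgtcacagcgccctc
Rpa1/Smyd4: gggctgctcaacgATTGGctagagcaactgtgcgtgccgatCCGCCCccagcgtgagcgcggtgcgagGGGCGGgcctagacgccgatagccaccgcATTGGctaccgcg

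The spans lie at chr14:67715841-67715937 (Cdca2/Kctd9), chr5:21645634-21645813 (Fbxl13/Armc10), chr12:40445902-40445952 (Zfp277/Dock4), chr6:145211005-145211134 (Casc1/Etfrf1), chr7:28741820-28741992 (Mrps12/Sars2), chr11:53430831-53431023 (Uqcrq/Gdf9), chr12:78861638-78861819 (Atp6v1d/Eif2s1) and chr11:75348324-75348433 (Rpa1/Smyd4). The span of Mrps12/Sars2 held 4 CCAAT words, all on the minus strand, and that of Rpa1/Smyd4 held 2. The span of Fbxl13/Armc10 held 6 GC boxes, 2 of which overlap, and the sequence of Casc1/Etfrf1 held 3. None of the words was found between the TSSs of Cdca2/Kctd9, although 2 CCAAT words lay in the 300 bp around the centre of that span.

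To ask which divergent promoters SRCAP occupied, each span was scored for an overlapping peak in each list. A peak lay over 195 pairs in replicate 1, 25.9% (22.9 to 29.1%), and over 367 pairs in replicate 2, 48.7% (45.1 to 52.2%), a mean of 37.3 ± 16.1% (SD, n = 2). In both replicates a peak lay over 162 pairs, 21.5%, while 33 pairs had one in replicate 1 alone, 205 in replicate 2 alone and 354 (46.9%) in neither. Most pairs of replicate 1 were thus found again in the longer list of replicate 2. Only 1 occupied pair, in replicate 2, had more than 1 peak over its span. Intervals here are 95% Wilson intervals and cover counting error only.

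Of the 390 regions, 183 held peaks of both replicates (46.9%, 42.0 to 51.9%), 27 a peak of replicate 1 alone and 180 a peak of replicate 2 alone. Among all merged regions 22% held both, and among the 4924 regions at one-way promoters 32.2% did. A one-way promoter was the TSS of a protein-coding gene with no TSS of another protein-coding gene within 2000 bp, taken with the 1000 bp around it. Of the divergent-promoter regions with a replicate 1 peak, 87.1% (81.9 to 91.0%) also held a replicate 2 peak, against 72.3% (70.4 to 74.1%) at one-way promoters and 56.0% of all regions. Of those with a replicate 2 peak, 50.4% (45.3 to 55.5%) also held a replicate 1 peak, against 36.7% and 26.6%. None of the regions was at least 50% repeat (soft-masked) sequence, and the median share of such sequence was 2.72%.

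The score of a peak is the whole number that the peak caller gave it, at least 13 in both lists. Scores of the divergent-promoter regions ranged from 13 to 241 with a median of 38 in replicate 1, and from 13 to 278 with a median of 55 in replicate 2. The region medians lay above the medians of the whole lists, 32 and 36. The lists reached 4910 and 6452, and the best region ranked 27th and 40th. Of the regions, 35 of 210 (16.7%, 12.2 to 22.3%) were among the strongest 10% of peaks in replicate 1 and 89 of 363 (24.5%, 20.4 to 29.2%) in replicate 2. Regions held by both lists had medians of 39 and 67, against 29 and 43.5 for those held by replicate 1 or replicate 2 alone. Across the 183 shared regions the scores of the replicates had a Spearman rho of 0.37 and a Pearson r of 0.41 on a log10 scale. This describes regions of the same 2 libraries, which are not independent. The score was higher in replicate 2 in 146 of 183 regions, with a median ratio of 1.66. Scores depend on depth, which the lists do not give, so values of the replicates are set side by side without being read as a difference in binding.

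**Figure D1:**
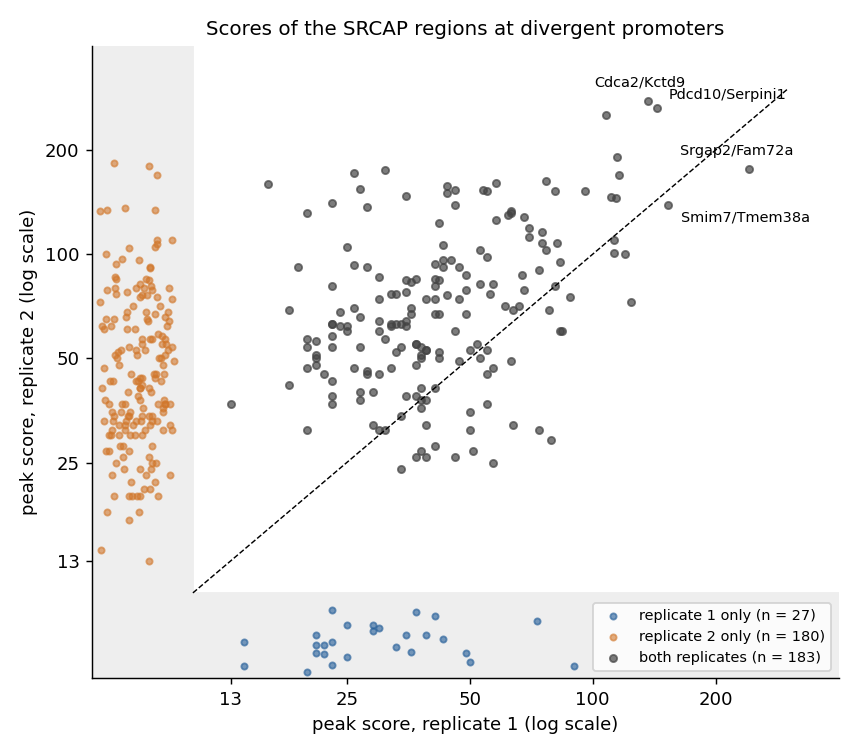
Peak score in replicate 1 (x axis) against replicate 2 (y axis), both on log scales, for each region at a divergent promoter; the grey strips hold regions with a peak in 1 list, jittered, and the dashed line marks equal scores. Most of the 183 shared regions lie above the line, and the scores of the 180 regions found in replicate 2 alone overlap those of the shared regions.

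The strongest region by its rank in both lists was at Pdcd10/Serpini1 (chr3:75556616-75557591), with scores of 144 in replicate 1 and 265 in replicate 2. Pdcd10 encodes a signaling adaptor mutated in cerebral cavernous malformations and Serpini1 encodes neuroserpin, and the region covered both of their TSSs, which are 691 bp apart. Cdca2/Kctd9 followed with 137 and 278 (chr14:67715637-67716176), Cdca2 being a subunit that brings protein phosphatase to mitotic chromatin. Srgap2/Fam72a had the highest replicate 1 score of the 390 regions, 241, and 176 in replicate 2 (chr1:131527304-131528032). Srgap2 encodes a GTPase-activating protein of neurons.

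Fbxl13/Armc10 (116 and 169), Plag1/Chchd7 (115 and 191), Ranbp10/Tsnaxip1 (108 and 252) and Cep170/Sdccag8 (111 and 146) came next. Plag1 is a zinc finger transcription factor, Chchd7 a mitochondrial protein, and Cep170 and Sdccag8 are both centrosomal proteins. Zfp277/Dock4 had 96 and 152, and Smim7/Tmem38a had 153 and 139. Hnrnpa2b1/Cbx3 (81 and 152, chr6:51469955-51470436) joins an RNA-binding protein with the heterochromatin protein HP1 gamma, and its CpG island is known as a ubiquitous chromatin opening element. Casc1/Etfrf1 closed the group with 77 and 163. At Dtl/Ints7, which encode a ubiquitin ligase receptor and an Integrator subunit, the region had scores of 114 and 145, but only the replicate 1 peak reached the 92 bp span itself, by a few bases at the plus-strand TSS. Of these 12 regions, 6 covered both TSSs and 6 covered 1.

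The position of SRCAP between the genes was described next. Regions were 235 to 1261 bp wide with a median of 544 bp, against 359 bp for all merged regions and 419 bp at one-way promoters. Merging widens regions held by both lists, but within those the order was the same, with medians of 644 bp at divergent promoters, 577 bp at one-way promoters and 546 bp for all regions. Single peaks in the equal windows described later were also wider at the pairs, with medians of 395.5 against 357 bp in replicate 1 and 499 against 412 bp in replicate 2. Of the 390 regions, 224 covered both TSSs (57.4%, 52.5 to 62.2%), 158 covered 1 TSS (40.5%) and 8 lay between the TSSs without reaching either. The share covering both was 82% of the regions at pairs 1 to 50 bp apart and 15.2% at 501 to 1000 bp.

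The midpoint of the peak lay between the TSSs in 43.6% (36.8 to 50.6%) of occupied pairs in replicate 1 and in 33.8% (29.1 to 38.8%) in replicate 2, a mean of 38.7 ± 6.93% (SD, n = 2). This share rose with the length of the span, from 0% and 4.26% at 1 to 50 bp to 84.4% and 68.9% at 301 to 500 bp. At 501 to 1000 bp it was 77.3% in replicate 1 and 74.2% in replicate 2. Over all occupied pairs the midpoint lay on the side of the minus-strand gene in 29.7% and 31.3% and on the side of the plus-strand gene in 26.7% and 34.9%, so neither side was preferred beyond the counting intervals. The midpoint was a median of 77 bp from the nearer TSS in replicate 1 and 83.5 bp in replicate 2. In the 162 pairs with a peak over the span in both replicates, the midpoints of the replicates were a median of 67 bp apart. They fell on the same side of the centre in 129 of 162 pairs (79.6%, 72.8 to 85.1%).

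Occupancy differed with the distance between the TSSs. Among the 128 pairs at most 50 bp apart a peak lay over the span in 11.7% (7.23 to 18.4%) in replicate 1 and 36.7% in replicate 2. The shares were 20.7% and 40.8% at 51 to 100 bp, 29.6% and 53.4% for the next class up to 200 bp, and 27% and 59% at 201 to 300 bp. They were highest at 301 to 500 bp, with 48.5% (36.8 to 60.3%) and 68.2%, and were 31.4% and 44.3% at 501 to 1000 bp. A longer span is easier to overlap, so the same was asked in 1000 bp around the centre of every span. There a peak was found in 18.8% and 43.0% of pairs at most 50 bp apart and in 50% and 69.7% of those 301 to 500 bp apart. The lowest and the highest class were thus the same at a fixed width, with the widest class at 34.3% and 48.6%. The median GC content fell from 64.8% in the closest class to 52.3% in the widest, and its part in this pattern was not tested. It was taken in the central 300 bp of each span, which reach neither TSS in the widest class.

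**Figure D2:**
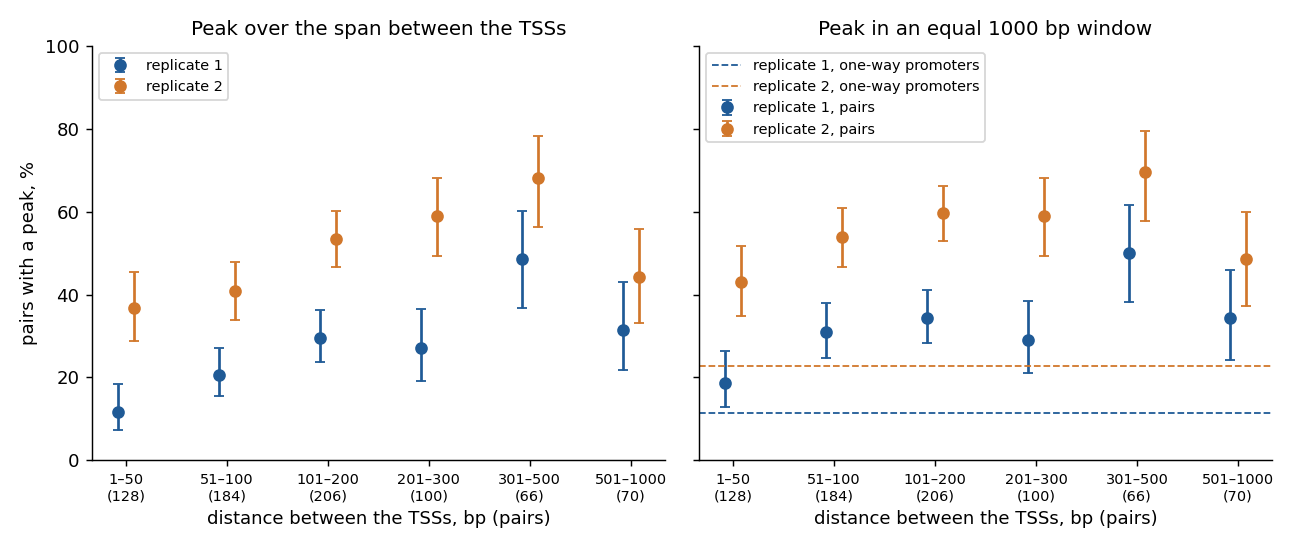
Share of divergent pairs with a peak (y axis, %) by distance between the TSSs (x axis, bp, number of pairs in brackets), over the span itself on the left and in a 1000 bp window on the right; bars are 95% Wilson intervals and dashed lines, drawn on the right only, the one-way promoters. In both replicates occupancy was lowest in the closest pairs and highest at 301 to 500 bp, and in the 1000 bp windows, the width that the dashed lines use, the pairs in every class lay above the one-way promoters of the same replicate, 11.5% and 22.8%.

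An example of a narrow pair was Bag4/Lsm1, whose TSSs are 1 bp apart and which had scores of 45 and 96. At the other end of the distance limit, Fhod1/Slc9a5 (890 bp; 25 and 62), Smim7/Tmem38a (967 bp; 153 and 139) and Btf3l4/Txndc12 (987 bp; 61 and 71) were the last pairs inside it with a peak in both replicates. Ushbp1/Babam1 (1059 bp; 34 and 38), Caskin2/Tsen54 (1085 bp; 44 and 48) and Slc26a8/Mapk14 (1096 bp; 27 and 34) were the first such pairs outside, so occupied head-to-head pairs continued past the limit.

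Averaged over pairs with a peak in the window, the share covered by a peak was highest near the centre. For pairs 301 to 1000 bp apart it reached 78.9% at 40 bp from the centre in replicate 1 and 76.2% at -20 bp in replicate 2, where negative positions lie toward the minus-strand gene. For pairs at most 100 bp apart in replicate 1 the centre was covered in 54.3%, less than the 66.7% at 100 bp on the plus-strand side, and 51.9% were covered at -200 bp and 56.8% at 200 bp. In replicate 2 no such dip was seen and the centre had the highest share, 73.4%, with 57.8% at -200 bp and 66.2% at 200 bp. One-way promoters reached 55.9% and 60.4% at 80 bp downstream of the TSS and were covered less upstream than downstream, with 39.0% and 41.1% at 200 bp upstream against 52.5% and 57.8% at 200 bp downstream. The pairs had a gene on both sides, and those 101 to 300 bp apart were covered about equally there, with 52% and 49% in replicate 1 and 58.8% and 58.2% in replicate 2. Pairs 301 to 1000 bp apart were covered more on the plus-strand side in both replicates, with 42.1% at -200 bp against 57.9% at 200 bp in replicate 1 and 42.5% against 62.5% in replicate 2. These shares rest on 57 and 80 pairs and have no counting interval. In the wider of these spans both positions lie between the TSSs.

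**Figure D3:**
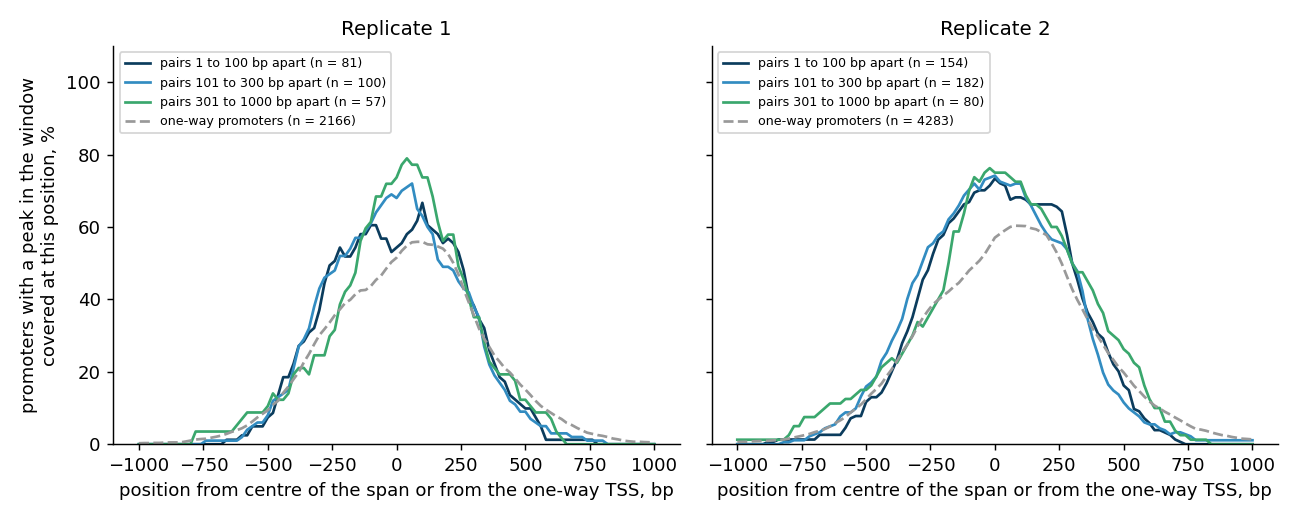
Share of promoters covered by a peak at each position (y axis, %) around the centre of the span, minus-strand gene to the left, or around the one-way TSS oriented by its gene (x axis, bp), among promoters with a peak in the 1000 bp window. The one-way curve leans downstream with its maximum at 80 bp in both replicates, pairs 101 to 300 bp apart are covered about equally on both sides, and the closer and wider pairs are covered more at 200 bp than at -200 bp.

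Divergent pairs were next compared with the 18811 one-way promoters in windows of equal size. A peak lay within 1000 bp around the centre in 31.6% (28.3 to 35.0%) of the pairs in replicate 1 and 55.2% (51.6 to 58.7%) in replicate 2. At one-way TSSs it did so in 11.5% and 22.8%. The difference was 20.1 percentage points in replicate 1 and 32.4 in replicate 2, a mean of 26.2 ± 8.74 (SD, n = 2), and the ratio was 2.74 and 2.42. In both replicates a peak was found in 27.3% of pair windows and 8.57% of one-way windows. A pair window holds 2 TSSs and a one-way window 1, and one-way promoters include genes of any activity, which was not used here, and the part of either in the difference was not tested.

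Base composition was one measured difference between them. Over 300 bp the median GC content was 62.3% in the pairs and 57% at one-way promoters, and the ratio of observed to expected CpG was 0.849 and 0.519. A CpG-rich window, with at least 55% GC and a ratio of at least 0.6, was found in 553 pairs (73.3%) and 7789 one-way promoters (41.4%). Within CpG-rich windows a peak was found in 33.3% (29.5 to 37.3%) of pairs against 21.7% (20.8 to 22.7%) of one-way promoters in replicate 1, and in 57.3% (53.2 to 61.4%) against 41.6% (40.5 to 42.7%) in replicate 2, a mean difference of 13.6 ± 2.95 points (SD, n = 2). The difference was smaller there but of the same sign in both libraries. It was largest at intermediate GC. At 50 to 55% GC a peak was found in 31.4% and 58.1% of 86 pairs against 4.74% and 11% of one-way promoters, and above 70% GC in 24.6% and 43.7% of 126 pairs against 18.3% and 36.4%.

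Among the pairs themselves the median GC content was 63.3% in pairs occupied in both replicates and 62.7% in pairs with no peak, and the CpG ratios were 0.808 and 0.862. Near-equal medians hid lower occupancy at both ends of the GC range in both replicates. Window occupancy was 14.7% in replicate 1 and 32.4% in replicate 2 for the 34 pairs under 45% GC, 17.1% and 34.3% at 45 to 50%, 26.9% and 63.4% at 55 to 60%, and 45.1% and 61.6% at 65 to 70%. One-way promoters occupied in both replicates had 66% GC and a CpG ratio of 0.820, against 53.3% and 0.337 for those with no peak. The scores of window peaks were nearly the same at pairs and one-way promoters in replicate 1, with medians of 38 and 37, and were 53 and 44 in replicate 2, a mean difference of 5 ± 5.66 (SD, n = 2), which is within the spread of the replicates. Divergent promoters were thus more often occupied, and no clear difference in peak score was measured.

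The words of known promoter factors were then searched in 300 bp around the centre of each pair, on both strands. The CCAAT box was found in 96 of 162 pairs occupied in both replicates (59.3%, 51.6 to 66.5%), in 50.8% (44.5 to 57.1%) of pairs occupied in 1, and in 121 of 354 pairs with no peak (34.2%, 29.4 to 39.3%). The share over all pairs was 44.8% and over one-way promoters 36.4%. Seen from the sequence, pairs with a CCAAT word were occupied in 34.9% (30.0 to 40.1%) in replicate 1 and 57.7% (52.4 to 62.8%) in replicate 2, and pairs without one in 18.5% (15.1 to 22.5%) and 41.3% (36.7 to 46.1%). The intervals did not overlap in either replicate. The sequences of Mrps12/Sars2 and Rpa1/Smyd4 printed here are examples with the word between the TSSs.

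The number of CCAAT words and the distance between the TSSs were looked at after these shares were seen. In 1000 bp windows, replicate 1 occupancy was 25.7% with no word, 35.7% with 1, 47.6% with 2 and 36.1% with 3 or more, and in replicate 2 it was 49.8%, 62.6%, 59.5% and 62.5%. Over all one-way promoters it was 10.2%, 11.4%, 18.3% and 23.1% in replicate 1 and 21.9%, 21.7%, 29.4% and 33.6% in replicate 2, so there windows with no word and with 1 had nearly the same share in replicate 2. At those with a CpG-rich window it was 18.4%, 24.3%, 35.7% and 40.3% in replicate 1 and 38.4%, 45.4%, 53.6% and 53.2% in replicate 2. CCAAT was less common in the closest pairs, 33.3% at 1 to 100 bp against 54.9% at 101 to 300 bp and 48.5% at 301 to 1000 bp. Within pairs at most 100 bp apart, spans were occupied in 29.8% (21.9 to 39.2%) with CCAAT and 10.6% (7.09 to 15.5%) without in replicate 1, and in 51.0% and 33.2% in replicate 2. At 101 to 300 bp the values were 33.3% and 23.2% in replicate 1 and 62.5% and 46.4% in replicate 2. At 301 to 1000 bp they were 47.0% and 32.9% in replicate 1 but 56.1% and 55.7% in replicate 2. Median scores of occupied pairs with and without the word were 39 and 38 in replicate 1 and 60 and 54 in replicate 2.

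**Figure D4:**
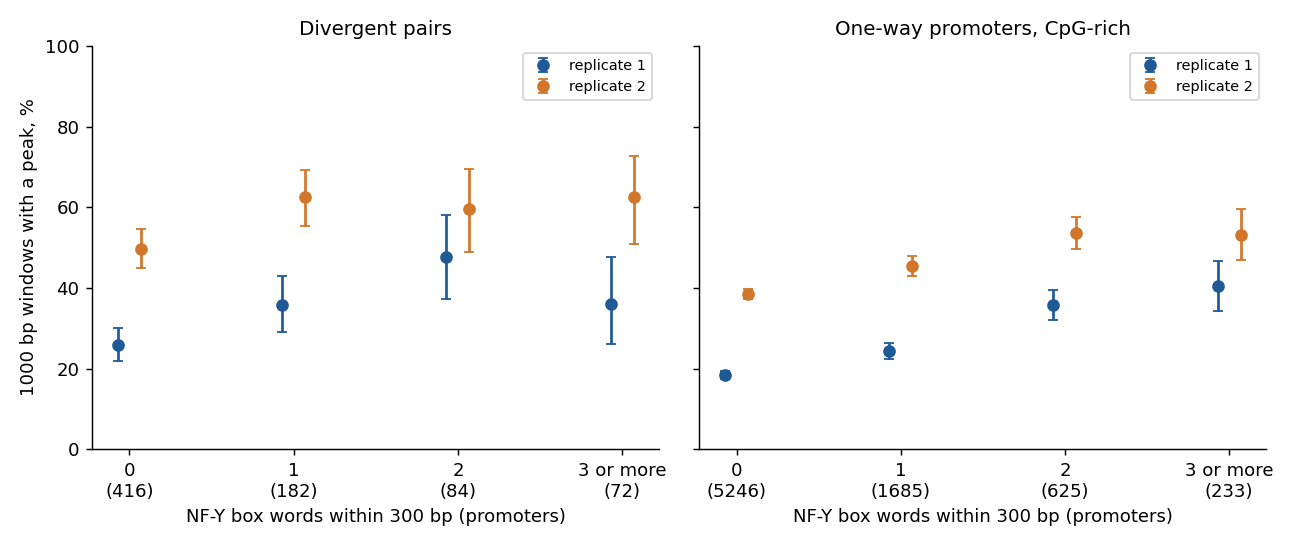
Share of 1000 bp windows with a peak (y axis, %) by number of CCAAT words on either strand in the central 300 bp (x axis, number of promoters in brackets), for divergent pairs on the left and CpG-rich one-way promoters on the right, with 95% Wilson intervals. Windows without the word had the lowest share in both panels and both replicates.

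The ETS word was found in 28.0% of pairs, against 9.78% of one-way promoters and 17.8% of those with a CpG-rich window, and within the pairs its share was alike in those occupied in both replicates (25.9%, 19.8 to 33.2%) and those with no peak (27.7%, 23.3 to 32.6%). Pairs were occupied in 24.2% with it and 26.5% without in replicate 1 and in 49.3% and 48.4% in replicate 2. The GC box was found in 77.8% (70.8 to 83.5%) of pairs occupied in both and in 63.6% (58.4 to 68.4%) of those with no peak, with 43.2% at one-way promoters but 79.2% at CpG-rich ones. Pairs with it were occupied in 29.2% (25.5 to 33.3%) and pairs without it in 18.7% (14.3 to 24.1%) in replicate 1, and in 51.5% (47.1 to 55.8%) and 42.7% (36.7 to 49.1%) in replicate 2, where the intervals overlapped. The NRF1, YY1 and ZBTB33 words were found in 6.50%, 13% and 5.17% of pairs against 2.95%, 6.09% and 1.01% of one-way promoters and 5.85%, 12.2% and 2.16% of CpG-rich ones, and for each the intervals of pairs occupied in both and with no peak overlapped. The TATA box was found in 4.38% of pairs, 1.85% of those occupied in both, 5.93% of those with no peak, 11.4% of one-way promoters and 3.43% of CpG-rich ones. The NRF1 and ZBTB33 words are read on both strands and overlap themselves in a palindromic site. A match describes the letters in the window and not binding.

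Genes in the pairs were then grouped by function in 17 lists, and a pair counted in a list if either gene was a member. Of all pairs 25.9% were occupied in replicate 1, 48.7% in replicate 2 and 21.5% in both. Against these shares each list is described by its counts, which are small. Of 46 pairs with a DNA replication or repair gene, 12 were occupied in replicate 1, 23 in replicate 2 and 9 in both. Among them were Pms1/Ormdl1 (55 and 98), Pms1 being a mismatch repair protein and the same peaks also counting for Pms1/Gm28778, and Rpa1/Smyd4 (42 and 84), Rpa1 being the large subunit of the single-strand DNA binding protein. Of 19 pairs with a cell division gene 4 were occupied in both, such as Cenpp/Nol8 (32 and 62), where Cenpp is a centromere protein. Of 21 splicing gene pairs 4 were, Ttc9c/Hnrnpul2 among them (57 and 82). Of 25 pairs with a gene for RNA polymerase, Mediator or general transcription factors 4 were, including the Pol III subunit pair Polr3g/Mblac2 (74 and 90) and the Pol I and III subunit pair Lnx2/Polr1d (88 and 75).

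Genes of mitochondria gave 3 of 18 pairs occupied in both for mitochondrial ribosomal proteins and 2 of 23 for the respiratory chain. Mrpl50/Zfp189 had 32 and 77, Mrpl40/Hira, which joins a ribosomal protein to a chaperone of histone H3.3, had 37 and 26, and Uqcrq/Gdf9, a complex III subunit beside an oocyte growth factor, had 83 and 95. All 5 pairs with an aminoacyl-tRNA synthetase gene were occupied in replicate 2 and 2 of them in replicate 1, among them Mrps12/Sars2 (13 and 37), where 48.7% and 25.9% of all pairs were. The Zfp zinc finger genes had 6 of 18 pairs occupied in both, among them Zfp654/Cggbp1 (39 and 74), and 62 of 347 one-way Zfp promoters had a peak in both replicates, against 8.57% of all one-way windows. Of the translation factor pairs 1 of 7 was occupied in both, Atp6v1d/Eif2s1 (47 and 92), Eif2s1 being the alpha subunit of initiation factor eIF2, and of the proteasome pairs 1 of 8, Psme2/Rnf31 (19 and 92).

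**Figure D5:**
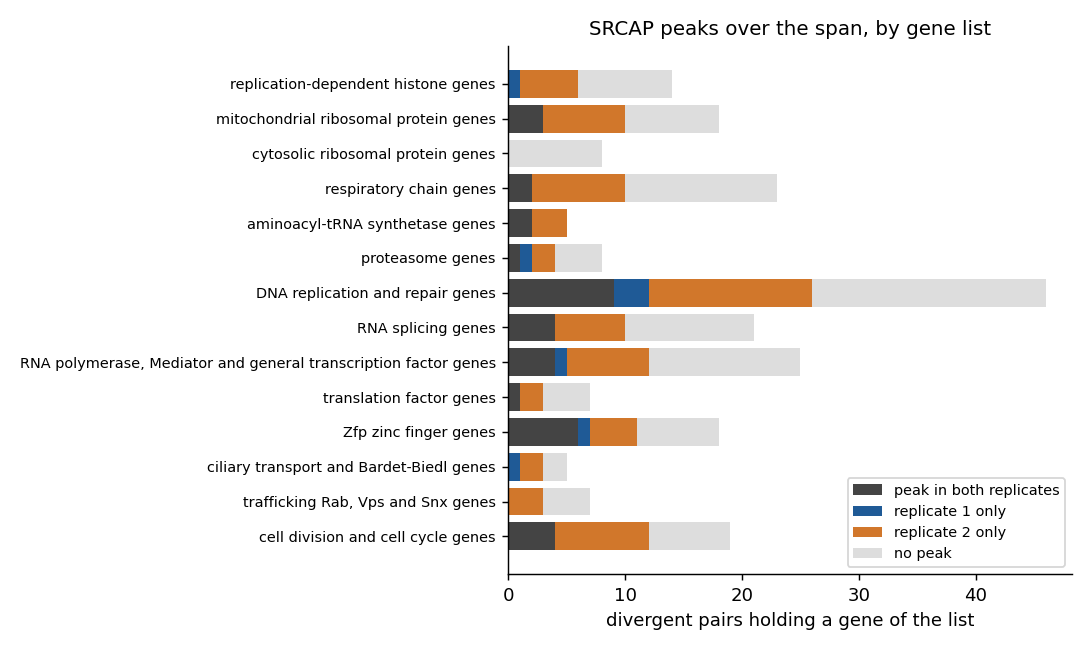
Number of divergent pairs (x axis) that hold a gene of each list with at least 5 pairs (y axis), by whether a peak lay over the span in both replicates, in 1 or in neither. The 8 pairs with a cytosolic ribosomal protein gene had no peak, and none of the 14 with a histone gene had one in both replicates. Of all pairs 46.9% had no peak and 21.5% had one in both replicates.

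The cytosolic ribosomal protein genes had no peak over any of their 8 pairs in either replicate. These were Med22/Rpl7a, Rps27/Rab13, Rpl9/Lias, Zwilch/Rpl4, Polr3a/Rps24, Iqcg/Rpl35a, Rnf151/Rps2 and Rps28/Ndufa7, named after their values were seen. None had a peak in the 1000 bp window either, where 31.6% and 55.2% of all pair windows had one. Of the 8, 7 had no CCAAT word, which 44.8% of all pairs held. Their GC content was 37.7 to 66.7%. At the 64 one-way promoters of ribosomal protein genes 2 had a peak in both replicates, against 8.57% of all one-way windows.

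The replication-dependent histone genes, transcribed in S phase and often arranged head to head, formed 14 pairs. A peak lay over 1 in replicate 1, over 5 in replicate 2 and over none in both. Over all pairs the shares were 25.9%, 48.7% and 21.5%. Hist1h2ac/Hist1h2bc had a score of 78 in replicate 2 in the widest of the 390 regions, 1261 bp, which also held a replicate 1 peak of 35 that did not reach the span. Bola1/Hist2h2ab had 71 in replicate 2 alone, Hist1h2ah/Hist1h2bk had 23 in replicate 1 alone, and these were named after their values were seen. All 14 pairs held at least 2 CCAAT words in the 300 bp window, so the word was present at pairs that were mostly not shared between the replicates. Their GC content was low, 31 to 49%. Histone genes are near-identical copies, so peak calls at them are uncertain where reads cannot be placed uniquely, and this was not tested here.

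Over all pairs 48.7% were occupied in replicate 2 and 21.5% in both. Of the pairs with a gene of the SRCAP, TIP60 and INO80 complexes or H2A.Z, 3 of 4 were occupied in replicate 2 and 1 in both. Named after their values were seen, these were Utp18/Mbtd1 (123 in replicate 2, with a replicate 1 peak of 42 in the same region that did not reach the span), Trove2/Uchl5 (67 in replicate 2), Brd8/Kif20a (39 and 53) and Tfpt/Prpf31, which had no peak. Mbtd1 and Brd8 belong to the TIP60 complex and Uchl5 and Tfpt to INO80. Developmental regulators of the Hox, Fox, Pax, Tbx and Sox families formed 3 pairs, Rhno1/Foxm1, Foxa3/Sympk and Sox6/1110004F10Rik, named in the same way. None of the 3 had a peak in either replicate, where 46.9% of all pairs had none. None of the 114 one-way promoters of these families had a peak in both replicates, where 8.57% of all one-way windows did. The 2 pairs with a type IV collagen gene had no peak either. Trafficking genes (Rab, Vps and Snx) had none of 7 pairs occupied in replicate 1 and 3 in replicate 2. Ciliary transport genes had 1 of 5 occupied in replicate 1 and 2 in replicate 2, with none shared. Of all pairs 25.9% were occupied in replicate 1 and 48.7% in replicate 2.

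Finally, a panel of 22 well-known pairs of neighboring genes was looked up, of which 8 were head to head by the TSSs of their gene records. Mcm4/Prkdc, which joins a subunit of the replicative helicase to the catalytic subunit of DNA-dependent protein kinase, had scores of 31 and 175. Together with Pdcd10/Serpini1 and Mrps12/Sars2 it was occupied in both replicates. Atm/Npat, a DNA damage kinase beside an activator of histone genes, had a peak in replicate 1 alone (41), and Gart/Son, a purine synthesis enzyme beside a splicing factor, in replicate 2 alone (33). No peak lay over Brca1/Nbr1, Trp53/Wrap53 or Col4a3/Col4a4. Another 7 pairs were head to head only by other annotated TSSs of their transcripts and so were not among the 754. Of these, Rnaseh2a/Prdx2 had a peak in both replicates (29 and 40), Hars/Hars2 one in replicate 2 (54), and Hspd1/Hspe1, Surf1/Surf2, Fen1/Tmem258, Psmb9/Tap1 and Sirt3/Psmd13 had none. The peaks at Rnaseh2a/Prdx2 belong to a region that was kept through the pair Gm49661/Prdx2. The remaining 7, among them Ppat/Paics, whose gene records overlap, did not meet the rule.

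Chromosome 8 was looked at after earlier results of these data were known. There a peak lay over 21 of 52 pairs in replicate 1 (40.4%, 28.2 to 53.9%) and 36 of 52 in replicate 2 (69.2%, 55.7 to 80.1%), against 24.8% and 47.7% on the other autosomes. One-way promoters on chromosome 8 also had more calls, with a peak in 19.5% (17.0 to 22.3%) and 31.5% (28.4 to 34.7%) of windows against 11.5% and 23% on the other autosomes. On chromosome X a peak lay over 5 and 6 of 20 pairs, 25% and 30%. Without chromosome 8 the mean share of occupied pairs was 36.0% and the mean difference from one-way promoters 25.4 points, so neither rested on it.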

How the data were processed

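SRCAP-YPet was profiled by CUT&Tag in 2 samples of 1 group. For each sample the authors deposited a MACS2 peak list with chromosome, start, end, name and a whole-number score. The deposited score was used to rank and describe peaks, and in the alternatives also to filter them. The study lists the versions of its tools, but its list and the labels name different versions of MACS. The methods of the study name STAR, unique alignments, duplicate removal, downsampling by Drosophila reads and a blacklist for ChIP-seq and CUT&Tag together. Which of these steps and whether a control library applied to these lists is not known, and each list is of unknown depth, which affects how many peaks pass and their scores. The precision given is therefore counting error over pairs or regions only.

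Coordinates are mm10. TSSs were the 5′ ends of protein-coding gene records in GENCODE mouse release 21, and sequences were read from the RefSeq copy of GRCm38. Peaks of both lists were merged where they shared at least 1 bp. Shares have 95% Wilson intervals, values per replicate a mean and SD, and no test was run, since there is 1 group and regions are not replicates. Named pairs were the 12 shared regions with the best worst rank and under 50% soft-masked bases, a panel of 22 pairs, up to 3 pairs occupied in both replicates from each list with at least 5 pairs, and 3 pairs on each side of the distance limit. Pairs named otherwise are marked, and some pairs that the rule names are not reported here. The regions, lists and words were chosen with earlier results of these data known. Alternatives covered the TSS definition, distance, overlap, score, list length, merging, repeats, gene names, window and replicates. The code was tested on simulated data. Scripts ran under Python 3.11.15 with scipy 1.17.1, matplotlib 3.10.9, pandas 2.3.3 and numpy 2.4.6.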

Additional observations from a re-analysis of the deposited data

How the results depend on the processing

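Of 75 values recomputed under alternatives, 65 moved by less than the spread of the replicates, their counting interval or 1.5 times. A mean over 2 replicates always moves by less than its SD when 1 is left out. Such values could not count as moved. Counts and shares cannot be negative, so only the occupancy and score differences could change sign, and none did. Keeping only peaks with a score of at least 50 gave 225 regions, 22.7% of them held by both replicates, a mean of 18.7% of pairs occupied and a difference from one-way promoters of 13.5 points. The share of regions covering both TSSs became 52.3% with TSSs up to 2000 bp apart and 65.9% with an overlap of at least 50% of the span or of a shorter peak, which also gave 46.7% of midpoints between the TSSs. In CpG-rich windows, chosen after seeing the data as was leaving out chromosome 8, the difference from one-way promoters was 13.6 points.

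Leaving out each replicate gave 187 to 358 regions, 25.9 to 48.7% of pairs occupied, a difference of 20.1 to 32.4 points, a score difference of 1 to 9, 42.8 to 54.2% of regions covering both TSSs and 33.8 to 43.6% of midpoints between the TSSs. The lower region count and the lower share covering both TSSs were those of replicate 1 alone. Using every annotated TSS gave 570 regions and 23.9 points. No paired analysis was possible because both samples belong to 1 group. Depth is unknown, so a pair without a peak is a pair without a call and not one without SRCAP.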
